A study of Mus musculus and Homo sapiens with 27 samples.

Results

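Chemokines, interleukins and their receptors are the messengers of the immune system: chemokines guide cell movement, and interleukins carry growth and differentiation signals between leukocytes. Chemokine receptors are G-protein-coupled, whereas most interleukin receptors are assembled from several chains and signal through JAK kinases and STAT factors. In germinal centre B cells, CXCR5 and CXCR4 place the cell in the follicle and its dark zone, and IL-4 and IL-21 from helper T cells act through IL4R, IL21R and the shared chain IL2RG. The set described here holds the human genes whose symbol starts with CCL, CCR, CXCL, CXCR, XCL or CX3C, or with IL and a digit. Membership follows from the symbol alone, although the set was proposed with earlier results of these data known. It had 101 members among the 4604 genes with a single symbol on the human lymphochip, a spotted cDNA array of lymphocyte genes. By role they were 14 chemokine receptors (with CCRL2, an atypical one), 36 chemokine ligands, 28 interleukin receptor chains and 23 interleukins, with the receptor antagonists IL1RN and IL36RN counted among the last.

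The cells were OCI-Ly7, an established human line of diffuse large B-cell lymphoma of the germinal centre type. On each of 4 arrays, RNA labelled as coming from cells that express human IRF4 from the Vxy vector carried Cy5, and RNA of cells with the empty Vxypuro vector carried Cy3. IRF4 is a transcription factor needed for plasma cell formation. There was 1 array at day 2, 2 at day 3 (repeats 1 and 2) and 1 at day 5, and the empty-vector control carries no day in the labels. All cells were of 1 line, and nothing in the labels says whether the arrays came from separate transductions, so the p-values measure the spread between these arrays, which may in part be technical. In the test of the mean ratio, arrays of different days stand in as replicates. Any change between the days is thus also part of that spread. A ratio does not show the level of a gene, so neither the presence of a member in OCI-Ly7 nor that of its defining markers could be checked. The 23 mouse arrays of the series were not used.

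All values are log2 ratios, taken as IRF4 vector over empty vector, with the median of each array set to 0, and a gene is the mean of its features. Ratios are given in the order day 2, day 3 repeat 1, day 3 repeat 2 and day 5. The direction rests on the dye labels alone, because the files do not state which channel is on top and the titles name the empty vector first. IRF4 itself did not settle it. One of its 4 features lay above 0 on each array (0.60, 0.64, 0.86 and 0.67), and the gene mean was -0.29, 0.67, -0.17 and -0.32, above 0 only on day 3 repeat 1. Where these features lie on the IRF4 transcript, and thus whether they would bind RNA from the vector, is not known here. PRDM1, which encodes the plasma cell factor Blimp-1, lay at 1.51, 1.33, 1.64 and 2.84, and each of its 3 features was above 0 on each array. A reversed ratio would turn the sign of each value that follows, so "higher" and "lower" refer to the cells labelled IRF4 vector.

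No member was past the threshold of an adjusted p under 0.05 between the channel labelled IRF4 vector and the empty vector (limma with Benjamini-Hochberg adjustment over 4604 genes). Of all genes 5, or 0.109%, were past it. At an unadjusted p under 0.05 there were 23 of 101 members, against 23.9% of all genes, so that the share of the members lay near the background. These 23 were split into 21 lower and 2 higher, whereas 16% of all genes were lower and 7.91% higher by the same rule. With array weights 4 members passed (CXCR6, IL13, IL18 and IL37, all lower), or 3.96%, against 5.69% of all genes. With quantile normalization 1 did (IL37), or 0.99%, against 2.04%. Within day 3 repeat 1 and day 5 alone, the 2 arrays of the lower range of the authors' database number, 9 did, or 8.91%, against 7.43%.

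The members lay lower than the genes of the array at large. Their median ratio was -0.52, against -0.14 for all genes, and 76 of 101 had a mean below 0, or 75.2%, against 56.7% of all genes. By role the median was -1.01 for chemokine receptors, -0.54 for chemokine ligands, -0.34 for interleukin receptor chains and -0.29 for interleukins. Without the day 5 array these medians were -0.57, -0.36, -0.36 and -0.25. The chemokine receptor median was -0.17 at day 2, -0.59 and -0.42 at day 3 and -2.44 at day 5. Of the members 31 were below 0 on each of the 4 arrays with a mean beyond -0.5, against 19.1% of all genes, and 4 were above 0 on each array with a mean beyond 0.5, against 13.5%. The 31 make up 30.7% of the members. This is a description of the set, with no test of it as a whole.

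**Figure D1:**
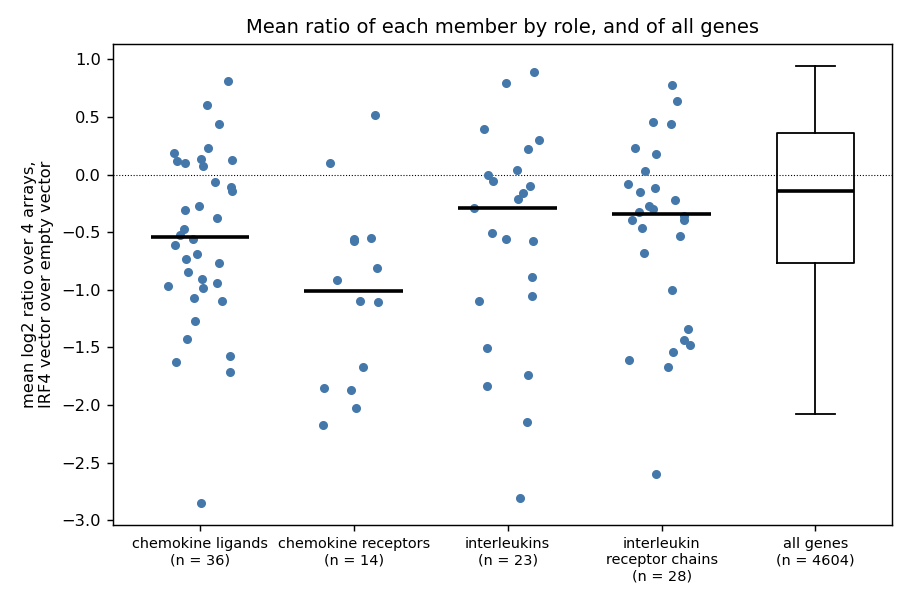
Mean log2 ratio over 4 arrays, IRF4 vector over empty vector (vertical axis), of each member by role, 1 point a gene, with the median of each role as a bar; the box shows all 4604 genes with quartiles, and its whiskers reach the 5th and 95th percentiles. The medians of the 4 roles lie between -1.01 and -0.29, below the -0.14 of all genes. Without the day 5 array (not drawn) they lie between -0.57 and -0.25, against -0.09 for all genes.

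The arrays did not carry this shift evenly. The member median was -0.29 at day 2, -0.52 and -0.21 at day 3 and -0.67 at day 5, and all genes had -0.11, -0.04, -0.07 and -0.19. The day 5 array stood apart by its spread: the standard deviation (SD) of its deposited ratios was 2.04, against 1.25 to 1.51 on the others, and the lower quartile of the members was at -2.32 on it. Without the day 5 array the member median was -0.37 and that of all genes -0.09. The arrays also fall into 2 ranges of the authors' database number, with day 3 repeat 1 and day 5 in the lower and day 2 and day 3 repeat 2 in the higher. The member median was -0.64 within the lower range and -0.24 within the higher. Over all features, pairs of arrays had correlations of 0.31 to 0.46, and over the 101 members of 0.17 to 0.46.

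**Figure D2:**
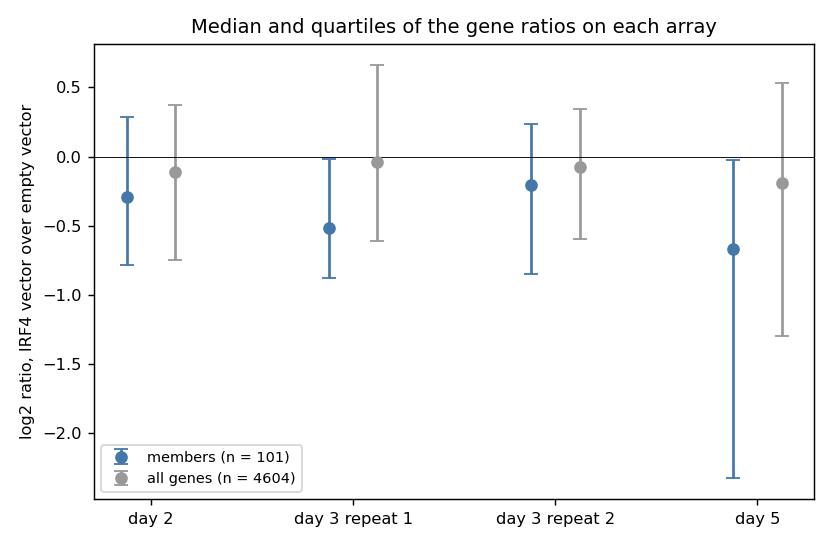
Median (point) and quartiles (bars) of the log2 ratios of the 101 members, on the left of each pair, and of all 4604 genes, on the right, for each of the 4 arrays. The member median lies below that of all genes on each array, and the lower quartile of the members reaches -2.32 at day 5.

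Among the chemokine receptors 12 of 14 had a mean below 0 and 0 passed the test. CXCR6, the receptor of CXCL16, lay at -1.51, -0.60, -2.15 and -3.86, with a mean of -2.03 ± 0.54 (SE, n = 4, limma adjusted p = 0.137). It was the only chemokine receptor whose features (3) were all below 0 on all 4 arrays. CXCR5, the receptor that leads B cells to follicles, lay at -1.06, -0.59, -0.43 and -2.33, with a mean of -1.10 ± 0.39 (SE, n = 4, limma adjusted p = 0.178). All arrays were thus on 1 side of 0, with the day 5 array farthest from it, and the mean without day 5 was -0.69. CCRL2, which binds chemerin and presents it to other cells, lay at -0.52, -0.43, -2.77 and -3.67, and its arrays split into a pair near 0 and a pair far below.

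CXCR4, the receptor of CXCL12 that holds cells in bone marrow and in the dark zone, had the highest mean of the chemokine receptors. Its ratio was 0.72, 0.80, 0.69 and -0.15, with a mean of 0.52 ± 0.29 (SE, n = 4, limma adjusted p = 0.303). The day 5 array was below the other 3, which lay close together with a mean of 0.74. All but 1 of its 8 features had a mean above 0, and that one was at -0.00425. CCR7, which leads lymphocytes to lymph nodes, lay at 0.13, -0.58, 0.45 and 0.42. Its mean was 0.10, with a 95% confidence interval from -0.62 to 0.83, so a change of either sign of about that size is not excluded by these arrays.

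CCR6, the receptor of CCL20, had the lowest mean of the chemokine receptors, -2.18 ± 0.88 (SE, n = 4, limma adjusted p = 0.203), on 1 feature. Its arrays disagreed, at -0.78, 0.41, -4.76 and -3.58. A feature each of CCR1 and CXCL8 had the same ratio on day 3 repeat 2 (-4.756). At day 5 a feature each of CXCL9 and IL2RB also had -3.58. The reason for these shared values was not tested. CXCR2, a receptor of neutrophil chemokines, lay at -0.30, -0.85, -0.41 and -5.11, so that 1 array set its mean of -1.67, which was -0.52 without it. CCR2, the receptor of CCL2, lay below 0 on each array at -0.58, -1.81, -0.10 and -0.77. The receptors CCR1, CCR4, CCR8, CXCR1, CXCR3 and CX3CR1 had arrays on both sides of 0, and their means lay between -1.87 (CXCR1) and -0.55 (CCR8).

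Of the 36 chemokine ligands, 26 had a mean below 0 and 0 passed the test. CXCL3, a neutrophil chemokine with close paralogs that its single feature may also detect, had the lowest mean of any member, -2.85 ± 0.74 (SE, n = 4, limma adjusted p = 0.137). It lay at -0.39, -2.03, -4.49 and -4.47, with day 2 near 0 and the others far below. CXCL9, an interferon-induced ligand of CXCR3, lay at -2.80, -1.80, -0.64 and -1.60, with a mean of -1.71 ± 0.40 (SE, n = 4, limma adjusted p = 0.13). The related ligands CXCL10 (mean -0.61) and CXCL11 (mean -0.69) were also below 0 on each array, and all 3 genes are known interferon targets. Over the arrays CXCL10 was the steadiest of them, between -0.78 and -0.42, although its 7 features had means from -2.48 to 0.45.

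XCL1 and XCL2, nearly identical ligands of XCR1 that cDNA features may not tell apart, were both below 0 on each array. XCL1 lay at -1.49, -1.18, -0.39 and -3.43, and XCL2 at -0.997, -0.10, -0.80 and -2.05, with day 5 lowest in both. The 2 features of XCL2 disagreed, with means of -2.29 and 0.32. CCL28, a mucosal chemokine, had a mean of -1.58, from 1 feature at -3.60 and 1 at 0.44. CCL15 had a mean of -1.07 over features at -2.88, -0.91 and 0.60, and it was at -0.43 with the median of the features. CCL17 (-0.97) and CCL20 (-0.73) were likewise below 0 on all 4 arrays, though close to it at day 3 repeat 2 for CCL17 (-0.04) and at day 5 for CCL20 (-0.03). The 2 features of CCL17 had means of -2.10 and 0.17. CXCL16, the ligand of CXCR6, lay at -0.66, -0.39, -0.72 and -2.63, and its 4 features had means from -2.80 to 0.24.

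CCL11, an eosinophil chemokine, was the only ligand above 0 on all 4 arrays, at 0.50, 1.00, 0.24 and 0.68, with a mean of 0.60 ± 0.27 (SE, n = 4, limma adjusted p = 0.23). The 2 features of CCL11 had means of 1.015 and 0.194, and the one at 0.194 was below 0 on day 3 repeat 2 (-0.228). CCL25 had the highest mean, 0.82, with 3 arrays between 1.26 and 1.57 and day 3 repeat 1 at -0.84. Among the chemokines that activated B cells make, CCL3 lay at -0.18, -0.56, 0.26 and -3.12, and its mean without day 5 was -0.16. CCL4, made with CCL3, had a mean of -0.14 over arrays between -0.46 and 0.25, and CCL22, which attracts CCR4-bearing T cells, had -0.06 over arrays between -0.95 and 0.76. No direction can be read for CCL3, CCL4 or CCL22.

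**Figure D3:**
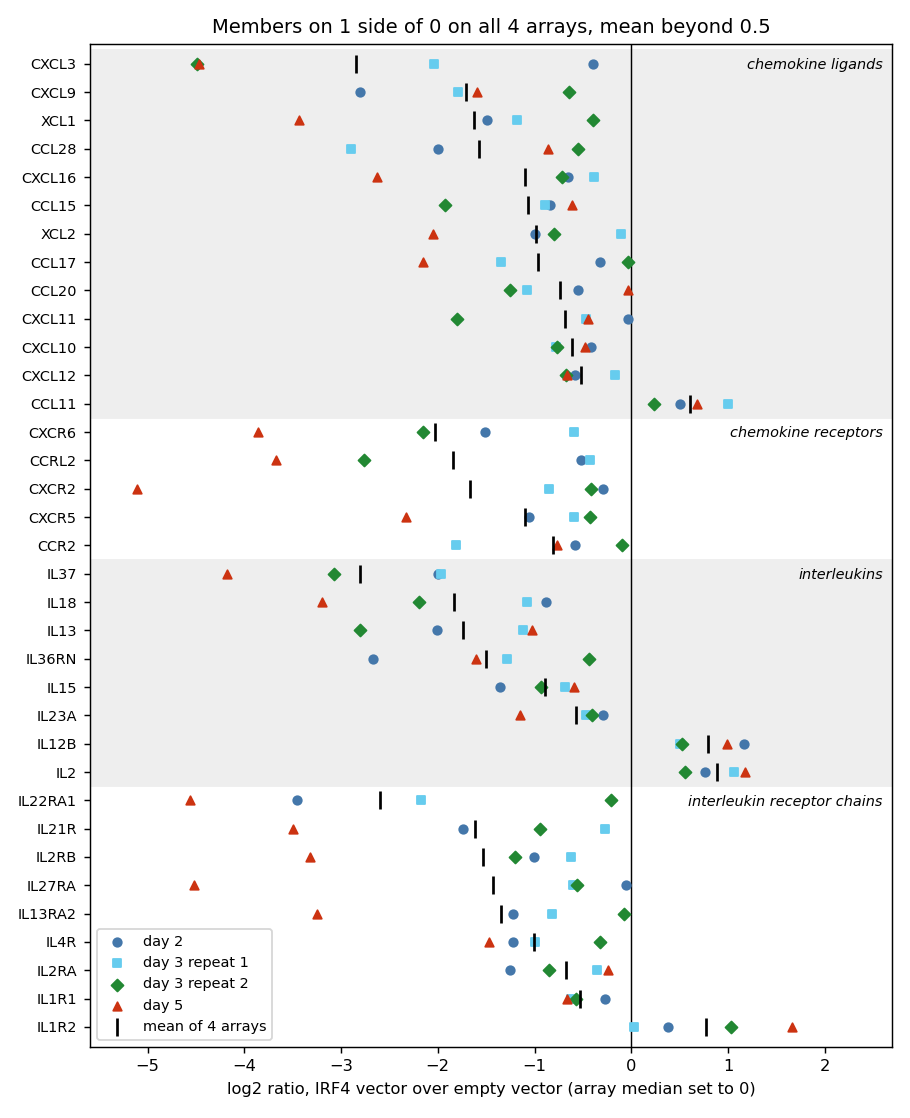
Log2 ratio, IRF4 vector over empty vector (horizontal axis), on each of the 4 arrays for the 35 members on 1 side of 0 on all 4 with a mean beyond 0.5, grouped by role, with the mean as a tick. Of these 31 lie below 0 and 4 above it, and the day 5 array is often the lowest, as for CXCR2 at -5.11.

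Of the 23 interleukins 17 had a mean below 0 and 0 passed the test. IL37, an anti-inflammatory member of the IL-1 family, had the smallest p of all members. It lay at -2.00, -1.97, -3.08 and -4.18, a mean of -2.81 ± 0.44 (SE, n = 4, limma adjusted p = 0.102), or 7.0-fold lower. Each array was at or below -1.97, both features were below 0 on each array, and the range over 15 alternatives was -3.09 to -2.35. The adjusted p over these alternatives ran from 0.00758 to 0.257, under 0.05 in 3 of the 15. IL18, an IL-1 family cytokine that induces interferon gamma, lay at -0.88, -1.07, -2.19 and -3.19 on 1 feature, with a mean of -1.83 ± 0.45 (SE, n = 4, limma adjusted p = 0.131). IL36RN, the antagonist of the IL-36 receptor, lay at -2.67, -1.29, -0.44 and -1.60, but its 2 features had means of -2.90 and -0.10.

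IL13, the cytokine closest to IL-4, lay at -2.01, -1.12, -2.81 and -1.02, with a mean of -1.74 ± 0.38 (SE, n = 4, limma adjusted p = 0.13). Its arrays all lay below -1, but its 2 features did not go together: one had a mean of -2.72, and the other -0.75 with 2 arrays above 0. IL15, a growth factor of NK and memory T cells, lay at -1.35, -0.69, -0.93 and -0.59, a mean of -0.89 ± 0.27 (SE, n = 4, limma adjusted p = 0.157). IL23A, a subunit of IL-23, was below 0 on each array, between -1.15 and -0.29. Both of its features were below 0 on each array, with means of -0.95 and -0.205.

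IL2 and IL12B were the interleukins above 0 on all 4 arrays. IL2, the T-cell growth factor, lay at 0.76, 1.06, 0.56 and 1.17, with a mean of 0.89 ± 0.26 (SE, n = 4, limma adjusted p = 0.155), and both features were above 0 on each array. IL12B, the shared subunit of IL-12 and IL-23, lay at 1.16, 0.50, 0.52 and 0.99 on 1 feature. For the cytokines that B cells themselves secrete, no direction held over the arrays. IL6, a plasma cell growth factor, lay at 0.21, -0.98, -1.11 and -2.32, with a mean of -1.05 ± 0.44 (SE, n = 4, limma adjusted p = 0.212). The 5 features of IL6 had means from -2.94 to 1.53. IL10 lay at -0.03, -0.05, 0.83 and -1.37, a mean of -0.16 with a 95% confidence interval from -1.13 to 0.82. IL16, a ligand of CD4, lay between -0.24 and 0.38, with a mean of 0.04 and an interval from -0.60 to 0.68.

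Among the 28 interleukin receptor chains 21 had a mean below 0 and 0 passed the test. IL4R, the chain that binds IL-4 and pairs with IL2RG, lay at -1.22, -0.99, -0.33 and -1.47, a mean of -1.003 ± 0.30 (SE, n = 4, limma adjusted p = 0.155), or 2.0-fold lower. All 4 arrays were below 0, 5 of its 6 features had a mean below 0, and the range over 15 alternatives was -1.23 to -0.73. Its mean was -1.23 in the lower and -0.77 in the higher range of the database number. IL21R, the receptor chain of IL-21, lay at -1.74, -0.27, -0.94 and -3.49, a mean of -1.61 ± 0.55 (SE, n = 4, limma adjusted p = 0.171), which was -0.98 without day 5 and -0.35 without ratios beyond 6. IL2RB, which serves IL-2 and IL-15, lay at -1.003, -0.62, -1.20 and -3.32, with all 6 features at a mean below 0, and its mean of -1.54 was -0.94 without day 5. IL2RA, the high-affinity chain of the IL-2 receptor and an activation marker, lay at -1.25, -0.36, -0.85 and -0.25.

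IL22RA1, a chain of the IL-22 receptor of epithelia, had the lowest mean of the receptor chains, -2.60 ± 0.70 (SE, n = 4, limma adjusted p = 0.137), on 1 feature at -3.46, -2.17, -0.21 and -4.56. IL13RA2, a decoy receptor of IL-13, had a mean of -1.34, or -0.71 without day 5. IL27RA, the receptor chain of IL-27, lay at -0.05, -0.60, -0.56 and -4.52, so that its mean of -1.43 rests on day 5, and it was -0.40 without that array. IL1R1, the signalling receptor of IL-1, lay between -0.66 and -0.27 on the 4 arrays, the average of features with means of -1.53, -1.03 and 0.97. IL1R2, the decoy receptor of IL-1, was the only receptor chain above 0 on all 4 arrays, at 0.38, 0.03, 1.03 and 1.67, a mean of 0.78 ± 0.35 (SE, n = 4, limma adjusted p = 0.236). For IL7R and IL10RA the means were 0.18 and -0.08 with arrays on both sides of 0.

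By cytokine family the count past the test was 0 in each. Of all genes 21.0% were below 0 on each array and 17.0% above it. The common gamma chain family had 12 genes with a median of -0.62. In that family 6 (50%) were below 0 on each array and 1 (8.33%), IL2, was above it. The IL-1 family had 12 genes with a median of -0.40. Here 4 (33.3%) were below 0 on each array and 1 (8.33%), IL1R2, was above it. IL36G, IL36RN and IL37 were added to this list after the values were seen, and IL36RN and IL37 are among the 4. Medians were -0.13 for 6 gp130 family genes, -0.22 for 6 IL-10 family genes, -0.27 for 3 IL-17 family genes and 0.30 for 5 IL-12 family genes. These are descriptions of a few genes each, with no test of a family.

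Ligands and receptors that bind each other can be set side by side. As gene means CXCL16 and CXCR6 were both below 0 on all 4 arrays, with means of -1.10 and -2.03. All features of CXCR6 were below 0 on each array, whereas 1 of the 4 features of CXCL16 was above 0 on each. CXCL12 was below 0 on each array at a mean of -0.52, whereas its receptor CXCR4 was above 0 on 3 of 4. CXCL13, the ligand of CXCR5, had a mean of -0.56 with 1 array above 0, and CXCR5 had -1.10. IL15 and IL15RA were both below 0 on each array as gene means, at means of -0.89 and -0.39. Their features lay on both sides of 0, with means from -3.16 to 1.09 for IL15 and from -1.71 to 0.62 for IL15RA. IL4 had a mean of -0.56 with 1 array above 0, and its receptor chain IL4R had -1.003. The 4 features of IL4 had means from -1.74 to 1.32, with 1 below 0 and 1 above 0 on each array. No difference within a pair was tested.

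The single features showed how far a gene's mean could be trusted. The 101 members rested on 314 features, and 82 had more than 1. In 26 of these 82, or 31.7%, all features had a mean on 1 side of 0, against 46.0% of all genes with more than 1 feature, which had 3.08 features on average against 3.60 for the members. Features of a member had a median SD between their means of 0.889, against 0.595 for all genes. Of these members 5 held together on each feature and each array: CXCR6, IL23A, IL37 and XCL1 below 0, and IL2 above it. These are 6.1% of the members with more than 1 feature, against 8.83% of all such genes. In 14 members, or 17.1% against 10.6%, at least 1 feature was below 0 and another above 0 on all 4 arrays.

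IL2RG, the shared chain of the receptors of IL-2, IL-4, IL-7, IL-15 and IL-21, was of that kind, and was chosen here after its values were seen. At day 2, 3 of its 5 features lay between -7.80 and -7.24, and the other 2 at 0.14 and 0.52. The same 3 features lay between -0.34 and 0.06 on day 3 repeat 1, while the other 2 were above 0 on each array. The gene mean of -1.48 ± 0.79 (SE, n = 4, limma adjusted p = 0.282) averages over this split. IL21R showed the same kind of split, with 3 features below 0 on all arrays, as low as -8.14 at day 5, and 2 features above 0 on all arrays, up to 1.76. IL15 had 3 features with means between -3.16 and -1.33 and 3 with means between 0.45 and 1.09. The features of IL4R and CXCR4 lay closer together, from -2.44 to 0.06 and from -0.00425 to 1.26. CXCR5 ran from -3.17 to 0.06, with 4 of 7 features below 0 on all arrays.

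**Figure D4:**
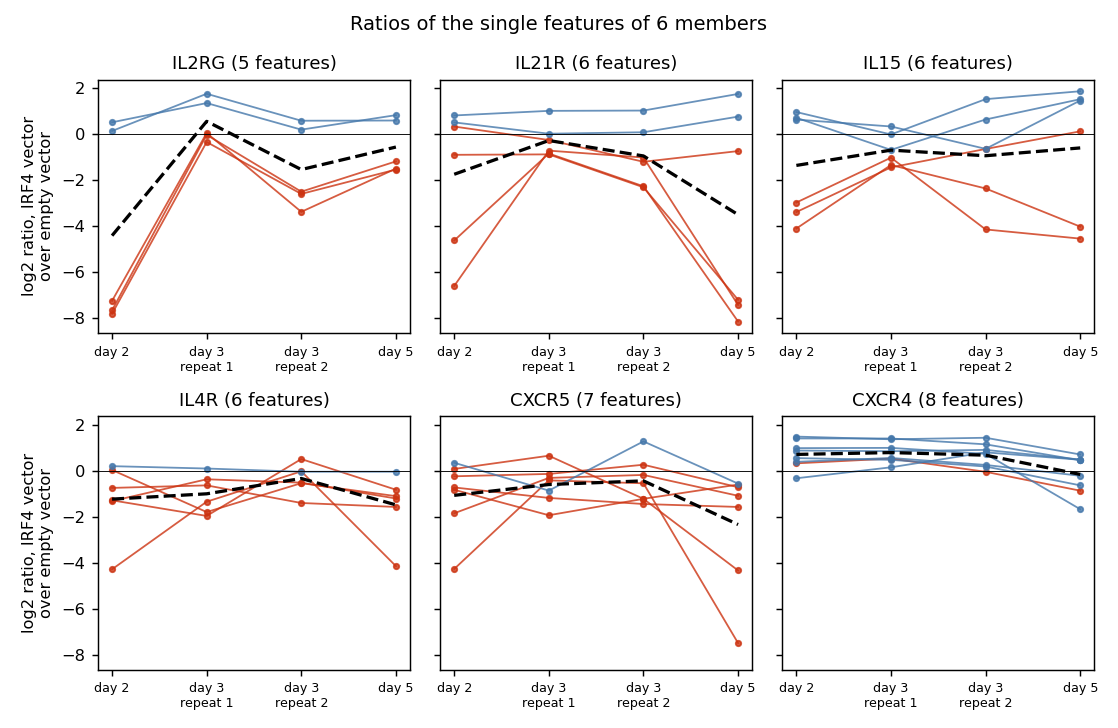
Log2 ratio, IRF4 vector over empty vector (vertical axis), of each single feature on the 4 arrays for IL2RG, IL21R, IL15, IL4R, CXCR5 and CXCR4; red lines are features with a mean below 0, blue lines those above it, and the dashed line is the gene mean. Lines join the values of a feature and are no time course, since 2 arrays are repeats of day 3. The features of IL2RG and IL21R split, with some near -8 and others above 0.

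Other members named above also moved by over 1.5 times with 1 choice. Without day 5, XCL1 was at -1.02, XCL2 at -0.63, CXCL16 at -0.59, CCL17 at -0.57, CXCL13 at -0.33, IL6 at -0.63 and IL1R2 at 0.48. Without day 3 repeat 2, CCR6 was at -1.32 and CXCL11 at -0.31, and without day 3 repeat 1, CCR2 was at -0.48 and CCL25 at 1.37. With the median of the features, CXCR5 was at -0.68, IL15 at -0.46, CXCL12 at -0.31 and CXCL10 at -0.11, and CCR2 lay close to 0 at -0.025. Without ratios beyond 6, IL13 was at -0.99 and IL13RA2 at -0.47. Each of these members kept its sign under these choices.

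The course over the days was fitted as a slope, since the ratio was read at 3 days. No member and 0 of all genes (0%) had a slope past an adjusted p of 0.05 (limma). At an unadjusted p under 0.05, 20 of 101 members had a falling and 2 a rising slope, against 9.49% and 2.82% of all genes. Falling slopes were found for CXCR2 (-1.74 per day ± 0.34, SE, limma adjusted p = 0.141), IL27RA (-1.59 per day ± 0.30, SE, limma adjusted p = 0.14) and CCL3 (-1.09 per day ± 0.33, SE, limma adjusted p = 0.254), each with 1 very low array at day 5. The slope of IL2RB was -0.86 per day, that of IL18 -0.77 and that of IL37 -0.75. Rising slopes were those of the gp130 gene IL6ST (0.77 per day), which serves IL-6, and of CCL26 (0.65 per day), and both means lay within 0.5 of 0.

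Within each range of the database number 1 array is later than the other. The later array was the lower one in both ranges for 36 of 101 members, against 33.1% of all genes, which is near the background. CCR6, CCRL2, CXCL3, IL18, IL37 and IL6 were among them. For the gene mean of IL6 the later minus the earlier array was -1.34 in the lower range (day 5 and day 3). It was -1.33 in the higher (day 3 and day 2). The features of IL6 did not move together. From day 2 to day 3 repeat 2, 1 feature went from -1.555 to -4.902 and another from -0.771 to 0.187. Day 5 was the lowest of the 4 arrays for 50 of 101 members, or 49.5%, against 36.5% of all genes. The larger share of members with a slope at an unadjusted p under 0.05 (21.8%, against 12.3% of all genes) did not hold when the spread of the arrays was made equal. It was 7.92%, against 7.19%, with arrays scaled to a common spread, and 3.96%, against 5.23%, with quantile normalization.

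The signalling genes behind these receptors showed no change past the test either. Of 21 measured JAK-STAT genes 0 passed, 12 were below 0, and their median was -0.19. JAK2, the kinase of many type I receptors, had a mean of -1.88 ± 0.63 (SE, n = 4, limma adjusted p = 0.168), which was -1.13 without day 5. STAT3, the main factor downstream of IL-6, IL-10 and IL-21, had a mean of -1.49 ± 0.40 (SE, n = 4, limma adjusted p = 0.137) and was below 0 on each array. STAT6, the factor of IL-4, had a mean of -0.56 with 1 array above 0. PTPN6, the phosphatase SHP-1, was above 0 on each array at a mean of 1.11. Among the feedback inhibitors SOCS1 had a mean of 0.35, SOCS2 -0.19 and SOCS3 -0.20.

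Of 21 measured genes of chemokine receptor signalling 0 passed, 11 were below 0, and their median was -0.08. GNAI2, the inhibitory G-protein subunit used by chemokine receptors, lay at -1.58, -2.10, -1.90 and -2.65 on 1 feature, a mean of -2.06 ± 0.29 (SE, n = 4, limma adjusted p = 0.102). GNAI3, a subunit of the same class, was above 0 on each array at a mean of 0.78. RGS1, a brake on chemokine receptor signals in B cells, was above 0 on each array at a mean of 0.94 ± 0.34 (SE, n = 4, limma adjusted p = 0.183). RGS13, a germinal centre member of that family, had a mean of -0.72 with 1 array above 0. Of 6 further receptor and chain genes 0 passed and 3 were below 0: ACKR3, which scavenges CXCL12, had a mean of -1.94, or -1.09 without day 5, and CSF2RB, the shared chain of the IL-3 and IL-5 receptors, had 0.69.

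Marker genes of cell types were read on the same ratios. Of 7 plasma cell genes 5, or 71.4%, were above 0 on each array, against 17.0% of all genes. The median of the 7 was 1.83, and 1, TNFRSF17, passed the test (3.36, limma adjusted p = 0.0455). Of 5 germinal centre genes 4 had a mean below 0, with a median of -0.45 and 0 past the test, and of 6 B cell genes 4 did, with a median of -0.48 and 0 past it. Of 9 T and NK cell genes 8 had a mean below 0, with a median of -0.37 overall and -1.87 at day 5, and of 5 myeloid genes 4 did, with a median of -0.68 overall and -1.04 at day 5. Genes of these types thus lay low on the same array as many members, and their part in the ratios of the members was not tested. All cells were of 1 B-cell line, so the T, NK and myeloid ratios do not measure numbers of such cells. In bulk RNA, fewer cells in a given B-cell state and less RNA per cell cannot be told apart.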

How the data were processed

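The deposited values are 1 ratio of Cy5 and Cy3 per feature, taken here as log2 ratios. Base, direction, scanner, background correction and normalization were not given in the sources used here. Deposited array medians were -0.26 to -0.08. Of 15246 features, 10169 had 1 symbol in the platform annotation, 4 had several and 5073 had none; no value was missing. The median of all features was subtracted from each array, and features with 1 symbol were averaged to 4604 genes. Signals of single channels were not analysed here, so signal over background and saturation could not be checked. Some low ratios were shared by features of different genes on the same array. At day 5 a feature each of CCL2, CCR4, CXCL14, IL2RB and IL36G was at -3.399. On day 3 repeat 2 a feature each of CCR1, CCR6 and CXCL8 was at -4.756. Whether such repeated values mark the floor of a channel was not tested. The number of arrays limits the precision. The mean ratio over 4 arrays was tested against 0, and its slope on the day against 0, with limma 3.58.1 in R 4.3.3 (empirical Bayes, 2-sided, Benjamini-Hochberg over all genes). The control RNA lies in the ratio, so its own spread and a dye bias cannot be told apart from it. Scripts were tested on simulated data.

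Members and gene lists were chosen with earlier results of these data known. Named were members on 1 side of 0 on all 4 arrays with a mean beyond 0.5, the highest and lowest of each role, any past the threshold, and a list of B-cell members; IL36G, IL36RN and IL37 were added to the IL-1 family list, and IL36RN to the interleukins, after the values were seen. Other genes are named as examples from their lists, chosen after their values were seen. Alternatives varied centring, normalization, feature summary, weights, extreme ratios and the arrays used. No human genome was used here, so no positions or sequences are given.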

Additional observations from a re-analysis of the deposited data

Results flagged for a closer look

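In 5 of 48 named members 1 of the 4 arrays lay apart from the other 3 by Dixon's test for outliers at the 95% level. Chance flags about 1 in 20 groups of replicates, but these arrays come from different days, and day 5 had the widest spread. The same criterion was met by 9 of 101 members and 481 of 4604 genes, both a larger share than 1 in 20. On the day 5 array CXCR2 was at -5.11, with the others between -0.85 and -0.30. IL27RA was at -4.52 there, with the others between -0.60 and -0.05. CXCL16 was at -2.63 at day 5, with the others between -0.72 and -0.39. CXCR4 was at -0.15 at day 5, with the others between 0.69 and 0.80. CCL25 stood apart on day 3 repeat 1 at -0.84, with the others between 1.26 and 1.57.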

How the results depend on the processing

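Of 720 values of named members under alternatives, 688 kept their direction and their side of the threshold. In the other values members came past the threshold or changed sign, and the cause was not tested. The count of members past the threshold was 0 in the main fit, 1 after quantile normalization, 4 with array weights and 9 with only the lower range of the database number, a fit on 2 arrays; without each array in turn it was 0. The count over all genes was 1 with no centring, 1 when centred over the features with 1 symbol, 1 with the median of the features, 0 with each feature tested on its own, 0 with the day 3 arrays averaged, 0 within the higher range, 94 after quantile normalization (21 higher and 73 lower), 262 with array weights (81 and 181), 342 within the lower range (23 and 319), and 0 to 1 without each array in turn. The member median was -0.24 within the higher range, against -0.52. Members with a slope past the threshold numbered 0 to 6 when 1 array was left out. These were IL2RG without day 5 (0.99%, against 2.11% of all genes), 5 members without day 3 repeat 2 (4.95%, against 3.3%) and 6 without day 2 (5.94%, against 6.02%). Sign changes were found in 8 named members. With no centring CCR7 was at -0.0886, IL16 at -0.16 and IL7R at -0.0168. IL10 was at 0.0446 after quantile normalization, 0.30 with array weights and 0.40 within the higher range. CCL4 was at 0.20 and IL10RA at 0.16 with the median of the features, and CCL4 at 0.0732 without ratios beyond 6. With the day 3 arrays averaged CCL22 was at 0.14 and IL16 at -0.0249. Within the lower range CCR7 was at -0.0825, and within the higher CCL3 was at 0.0367, IL10RA at 0.002 and IL7R at -0.32. Leaving out 1 array gave -0.33 to 0.24 for CCL22, -0.012 to 0.33 for CCR7, -0.48 to 0.25 for IL10, -0.22 to 0.11 for IL10RA, -0.0776 to 0.13 for IL16 and -0.0156 to 0.54 for IL7R. Day as a random block was not run, since limma estimates no correlation from 4 arrays of which 2 share a day. No paired analysis was possible because the 4 arrays form 1 group with no second group to share replicate numbers; the 2 populations of a comparison are already set against each other within each array's ratio.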
